A study of Mus musculus with 8 samples.

Results

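The transcription factors T-bet (Tbx21), Eomes, ZEB2, Id2, Id3, TCF-1 (Tcf7), LEF-1, Bcl6, Blimp-1 (Prdm1) and FOXO1 were examined in clonally expanded and polyclonal CD8 memory T cells of old mice. They were taken by gene symbol from the annotation of the array platform, and every probe set that carried 1 of the 10 symbols was kept. Of these 10 genes, 9 had at least 1 probe set, 21 probe sets in all, out of 45101 probe sets and 18194 named genes on the array. No probe set carries the symbol Tcf7 in the annotation used, so TCF-1 was not analysed here. A filter on dim probe sets left 18 of the 21 for testing, with at least 1 for each of the 9 genes, out of 22518 probe sets and 10407 genes tested on the whole array.

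These factors steer what a CD8 T cell becomes after it meets antigen. T-bet, ZEB2, Id2 and Blimp-1 are known for driving short-lived effector cells with cytotoxic and tissue-patrolling functions, while TCF-1, LEF-1, Id3, Bcl6 and FOXO1 are known for keeping cells in a state that persists, recirculates and can divide again. Eomes shares targets with T-bet and also serves the maintenance of memory cells through interleukin-15 signalling. Several members oppose each other directly: Bcl6 and Blimp-1 repress each other's genes in B and T cells, and Id2 and Id3 lack a DNA-binding region and act by capturing E proteins.

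Age-associated clonal expansions are large populations of CD8 T cells that share 1 T cell receptor and arise in old mice without deliberate immunisation. RNA was measured on 8 Affymetrix Mouse Genome 430 2.0 arrays, an expansion and a polyclonal memory sample from each of 4 female mice, and the study asked how the expansions differ from the polyclonal cells beside them. Spleen and lymph node cells were sorted as CD8+ CD122+ MHC II-, where CD122 is a receptor chain for interleukins 2 and 15 that is high on memory CD8 cells. An expansion was gated as positive for its T cell receptor V beta chain (Vb3, Vb8.1/8.2, Vb8.3 and Vb14 in mice 1 to 4), and its partner was the negative fraction of the same animal. The strain was C57BL/10SnJ for mice 1, 2 and 3 and B10.BR for mouse 4, the ages were 20, 20, 23 and 23 months, and no genetic alteration or treatment is named. Expansion 1 belongs to the integrin alpha4-high subclass and expansions 2, 3 and 4 to the alpha4-low subclass, per the labels. The alpha4-high subclass is therefore 1 expansion from 1 mouse, each expansion is 1 clone, and no group of young animals entered these comparisons. A polyclonal partner can still hold smaller clones, and a V beta gate can hold cells outside the clone.

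Expansions 1 to 4 had sort purities of 91, 95, 96 and 98%, and their partners of 97, 75, 66 and 97%, so pairs 2 and 3 are the ones with less pure partners. Signals are linear MAS5 intensities scaled by the authors, with an array median between 46.5 and 75.1. The background level of an array, taken as the 95th percentile over the 27 bacterial control probe sets, was between 33.7 and 61.9, and 22085 to 30533 probe sets lay above it. The labelled cell type held in the markers: all 9 of the CD8 T cell genes with a probe set were above background on all 8 arrays, with a summed signal of 27824 to 61809 in expansions and 32914 to 57315 in partners. Markers of other cells were present too. The summed signal of 7 B cell genes was 4989 to 38204 in expansions and 5561 to 18712 in partners, led by Ighm, and that of 10 myeloid and dendritic cell genes was 2085 to 9470 and 2045 to 6715. The 4 NK cell genes summed to 6841 to 20187 in expansions and 9204 to 37103 in partners, with the defining gene Ncr1 below background on all 8 arrays. CD4 T cell markers summed to 277 to 345 and 181 to 419, erythroid markers to 14.8 to 78.0 and 17.1 to 95.6. In such bulk samples, fewer cells of a type and less RNA of a gene per cell cannot be told apart.

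All comparisons were paired by mouse. A paired difference is log2(signal + 5) of the expansion minus that of its partner, a scale that understates differences of dim probe sets. A limma model with mouse as a block was fitted over all 22518 probe sets, and p-values were adjusted over all of them by the Benjamini-Hochberg method. It gave a value for all 4 pairs, for the 3 alpha4-low pairs, and for the difference between subclasses, which is the alpha4-low value minus that of pair 1. In the last of these the lone alpha4-high pair is assumed to vary like the rest. Replicates are different animals, but 4 of them limit what can be called.

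None of the 18 member probe sets passed an adjusted p of 0.05 in any of the 3 comparisons by limma. The background was as low: 0% of all 22518 tested probe sets were called over all pairs, and 12 (0.0533%) in the alpha4-low pairs and again 12 (0.0533%) in the difference between subclasses. At an unadjusted p under 0.05, 2 member probe sets passed over all pairs (3.25% of all tested did), 1 in the alpha4-low pairs (5.11%) and 4 in the difference between subclasses (6.57%). A missed threshold does not show that these genes were alike in expansions and partners: the standard errors of the members ran from 0.27 to 0.65 log2 units over all pairs, from 0.35 to 0.64 in the alpha4-low pairs and from 0.69 to 1.27 in the difference between subclasses. The median member difference was 0.03 over all pairs and -0.07 in the alpha4-low pairs, against -0.04 and -0.07 over all tested probe sets. In the difference between subclasses it was -0.66, against -0.10, with 4 of the 18 above 0, while 45.7% of all tested probe sets were above 0. The 18 are not independent, since 5 are of Zeb2 and all of them share the single pair 1 in this difference. The plot of signal by array shows how the brightest probe set of each gene behaved in each mouse.

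**Figure D1:**
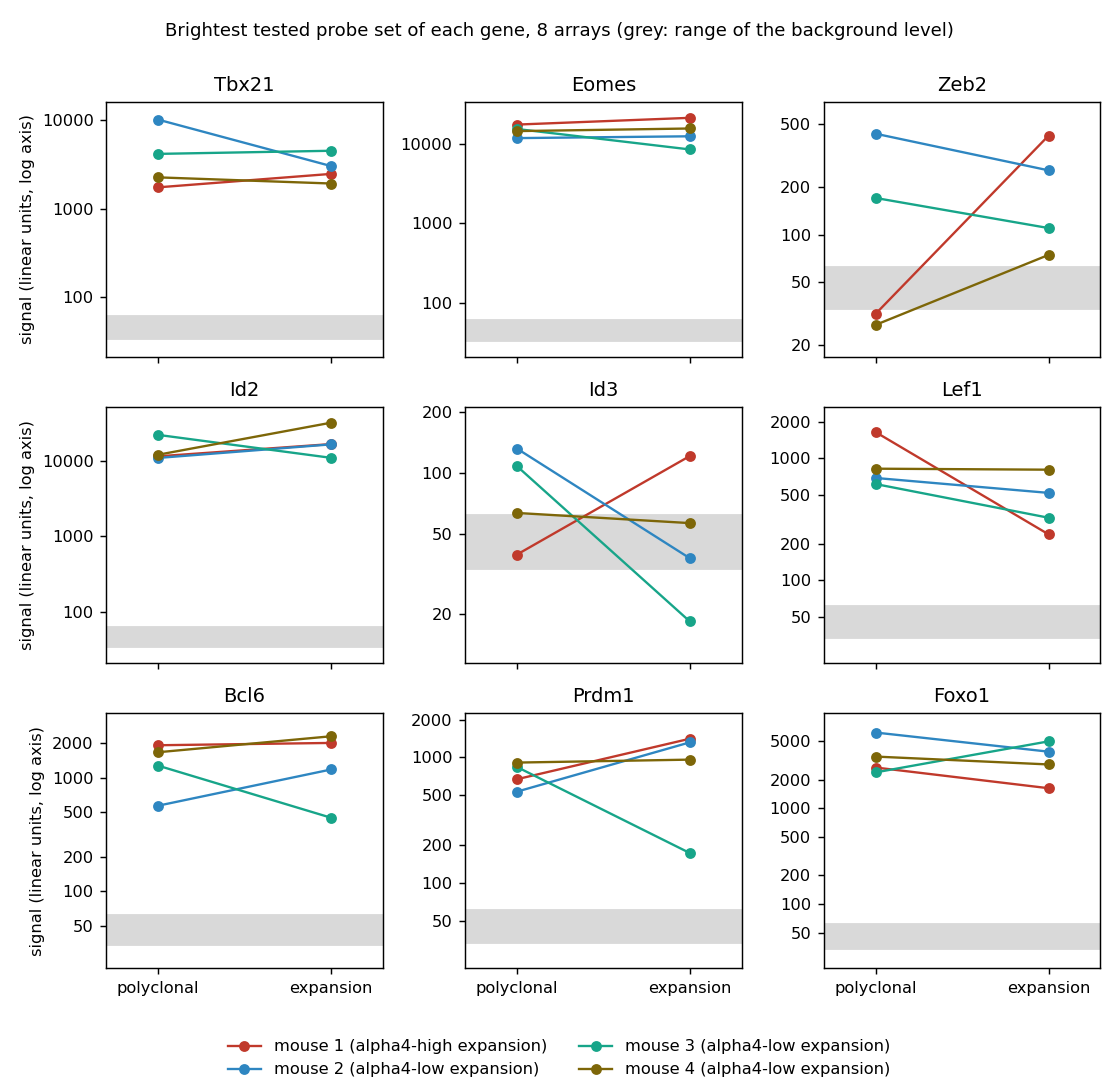
Signal of the brightest tested probe set of 9 genes (vertical log axis, linear MAS5 units, a scale of its own in each panel) in the polyclonal sample and the expansion of 4 mice, joined by mouse; grey marks the range of the background level, 33.7 to 61.9. The lines of Zeb2 and Id3 cross and lie partly at background, while those of Lef1 all run downwards from partner to expansion.

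ZEB2, a zinc-finger repressor that acts beside T-bet in terminal effector cells, had 5 probe sets, all tested. On the brightest of them (1422748_at) the signal in expansions 1 to 4 was 425, 256, 110.0 and 74.3, and in their partners 31.5, 436, 171 and 26.8. The partners of mice 1 and 4 were below background, expansion 1 lay within the range of the partners, and the groups overlapped. The paired differences were 3.56, -0.76, -0.61 and 1.32 log2 units, so that expansion 1 was at least 8.08-fold above its partner. The mean of the alpha4-low pairs was -0.02 (SE 0.51, 95% interval -1.13 to 1.10), and the difference between subclasses was -3.58 (SE 1.03, 95% interval -5.81 to -1.34, limma adjusted p = 0.383). Without mouse 4, in a fit with fewer residual degrees of freedom, that difference was -4.25. Without the mouse block it was -1.69, and with sort purity as a covariate -1.91.

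The other 4 Zeb2 probe sets did not all follow it. On 1434298_at the expansions gave 307, 53.8, 115 and 172 and the partners 56.7, 61.5, 138 and 20.5. Here expansions 1 and 4 were the high ones, and the paired differences of 2.34 and 2.79 in these mice stood against -0.18 and -0.26 in mice 2 and 3. On 1456389_at the expansions gave 175, 158, 84.6 and 73.8 and the partners 58.4, 76.6, 72.0 and 65.4, with expansion above partner in all 4 mice, by 1.51, 0.99, 0.22 and 0.16. This was the single member probe set higher in 4 of 4 pairs, a pattern that 4.79% of all tested probe sets had. Its fitted difference over all pairs was 0.72 (SE 0.43, limma adjusted p = 0.9998). Probe set 1454200_at was between 57.6 and 151 on the 8 arrays and 1458941_at between 50.1 and 131, close to background, with paired differences between -0.61 and 0.83. In pair 1 all 5 were above 0, from 0.66 to 3.56, and in the alpha4-low pairs the 5 fitted values were between -0.21 and 0.79. The fitted difference between subclasses was below 0 on each of the 5, from -3.58 to -0.61, but it turned to 1.03 on 1434298_at with sort purity as a covariate and to 0.26 on 1454200_at without the mouse block.

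The stretch of 250 bases before the annotated Zeb2 start is shown because its brightest probe set had the widest range of paired differences among the 9 genes. RefSeq places it at chr2:45117443-45117692 on the minus strand of GRCm38.p6. It is 1 of 4 windows listed for the gene.

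Zeb2: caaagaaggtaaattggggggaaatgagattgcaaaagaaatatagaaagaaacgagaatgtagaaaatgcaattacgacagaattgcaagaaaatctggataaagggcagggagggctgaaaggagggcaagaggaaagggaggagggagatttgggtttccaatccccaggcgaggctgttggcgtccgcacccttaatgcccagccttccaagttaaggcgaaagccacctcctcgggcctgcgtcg

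T-bet, the T-box factor that directs interferon gamma and cytotoxic genes, had 1 probe set. The Tbx21 signal in expansions 1 to 4 was 2470.1, 3028, 4508 and 1923, and in the partners 1741, 10134, 4158 and 2257. The partner of mouse 2 was the highest of the 8 arrays, and the groups overlapped. By mouse, the paired differences were 0.50, -1.74, 0.12 and -0.23, with a fitted mean of -0.62 in the alpha4-low pairs (SE 0.44, 95% interval -1.58 to 0.34) and a difference between subclasses of -1.12 (SE 0.89, limma adjusted p = 0.9997).

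Eomes, the second T-box factor of CD8 T cells, had 2 probe sets. On the brighter (1435172_at) the expansions gave 21207, 12436, 8505 and 15581 and the partners 17451, 11801, 15353 and 14452. Expansion 3 was the lowest and expansion 1 the highest, with paired differences of 0.28, 0.08, -0.85 and 0.11. On the other (1426001_at) the expansions gave 2972, 1243, 1468 and 1687 and the partners 2726, 2228, 2430 and 1847. All 3 alpha4-low expansions lay below all 4 polyclonal samples on this probe set, the single member for which these groups did not overlap. Such separation was found for 4.47% of all tested probe sets, which puts 1 of 18 close to the background. The fitted alpha4-low value was -0.57 (SE 0.40, 95% interval -1.44 to 0.31, limma adjusted p = 0.989), and the brighter probe set gave -0.22 (SE 0.35).

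Blimp-1, the repressor encoded by Prdm1 that marks terminal effector cells and plasma cells, had 1 probe set. Its signal in expansions 1 to 4 was 1408, 1318, 174 and 961, and in the partners 671, 535, 840 and 910.4. Expansion 3 was the lowest of the 8 arrays and expansions 1, 2 and 4 were above all partners, so the groups overlapped through that 1 sample. From mouse 1 to mouse 4 the paired differences were 1.06, 1.29, -2.24 and 0.08, with a fitted value of 0.05 over all pairs (SE 0.53, 95% interval -1.12 to 1.22) and -0.29 in the alpha4-low pairs (SE 0.58). Because plasma cells hold much Blimp-1, their markers were read beside it. Jchain, which joins secreted antibody chains, gave 4016, 5414, 154 and 455 in expansions 1 to 4 and 3112, 804, 368 and 383 in the partners, with paired differences of 0.37, 2.74, -1.23 and 0.24. These had the same sign as those of Prdm1 in all 4 mice, as the plot of both genes shows, but Jchain was picked after its values were seen. The signs of the other plasma cell markers differed. Sdc1 gave 0.44, -0.23, 3.08 and -1.52, with the sign of Prdm1 in mouse 1 alone. Tnfrsf17 gave -0.48, -2.07, 1.90 and -0.15, opposite in sign in all 4 mice. The summed signal of the 3 plasma cell markers with a probe set was 265 to 5431 in expansions and 377 to 3150 in partners. Tnfrsf17 was below background on all 8 arrays, and Sdc1, between 5.60 and 84.4, was above it in expansion 3 alone. The signs of Sdc1 and Tnfrsf17 thus rest largely on background values and cannot show whether these markers follow Prdm1. Ighm, of B and plasma cells, had paired differences of -0.32, 1.26, 1.27 and -1.46, with the sign of Prdm1 in mouse 2 alone. The part of such cells in the Prdm1 values was not tested.

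**Figure D2:**
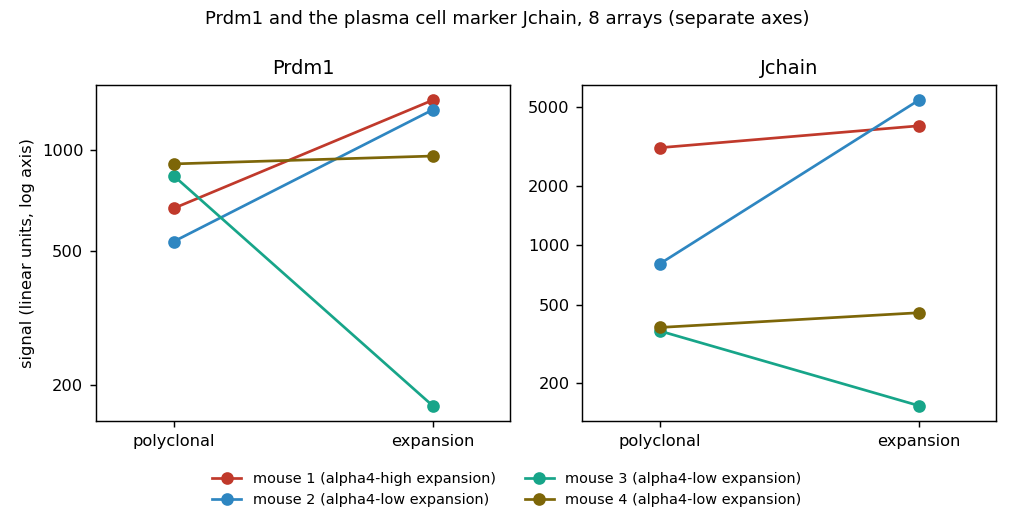
Signal (vertical log axes, linear MAS5 units, separate scales) of Prdm1 and of the plasma cell marker Jchain in the polyclonal sample and the expansion of 4 mice, joined by mouse. Both genes were higher in the expansion in mice 1, 2 and 4 and lower in mouse 3, where Prdm1 was 174 in the expansion and 840 in the partner.

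The window before the annotated Prdm1 start is shown because it held the most motif matches among the members. It lies at chr10:44458749-44458998 on the minus strand of GRCm38.p6, from RefSeq, and 69810 bases inside the outermost boundary listed for the gene, so it belongs to an inner start. The capitals mark GTAAACA, the reverse complement of the forkhead motif TGTTTAC, 231 bases before the start, and CAGGTG, the reverse complement of the E-box CACCTG, 87 bases before it.

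Prdm1: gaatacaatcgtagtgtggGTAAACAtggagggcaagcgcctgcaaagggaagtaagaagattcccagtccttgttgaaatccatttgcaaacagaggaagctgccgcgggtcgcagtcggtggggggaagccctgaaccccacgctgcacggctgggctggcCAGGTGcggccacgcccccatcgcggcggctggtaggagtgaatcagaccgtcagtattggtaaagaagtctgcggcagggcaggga

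Bcl6, the counterpart of Blimp-1 and a repressor linked to memory and follicular fates, had 2 probe sets. On the tested one (1421818_at) the expansions gave 2016, 1178, 444 and 2307 and the partners 1924, 567, 1273 and 1670.5. Expansion 3 was again the lowest array. The paired differences were 0.07, 1.05, -1.51 and 0.46, so the 3 alpha4-low pairs averaged 0.00 with a standard deviation of 1.34. The limma interval for that mean was -1.10 to 1.10. The second probe set (1450381_a_at) was below background on all 8 arrays, so it gave no measured difference. Bcl6 and Prdm1 did not run opposite to each other by mouse: both were higher in expansions 1, 2 and 4 and lower in expansion 3 than in the partner.

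Id2, the inhibitor of E proteins that supports effector and tissue-resident cells, had 3 probe sets. On the brightest (1435176_a_at) the expansions gave 16730.0, 16585, 10994 and 32150 and the partners 11518, 10961, 22153 and 12090. Expansion 4 was the highest array and the partner of mouse 3 stood apart from the partners of mice 1, 2 and 4. Paired differences of 0.54, 0.60, -1.01 and 1.41 gave a fitted value of 0.38 over all pairs (SE 0.36, 95% interval -0.40 to 1.17). On 1422537_a_at the expansions gave 306, 129, 94.6 and 61.7 and the partners 64.7, 195, 64.2 and 71.0. Expansion 1 was the highest array here, and pair 1 differed by 2.16 while the alpha4-low pairs averaged -0.08, a difference between subclasses of -2.24 (SE 0.96, 95% interval -4.33 to -0.14, limma adjusted p = 0.700). The third (1453596_at) ranged from 417 to 929, with paired differences between -0.23 and 0.57. The fitted difference between subclasses was -0.21 on the brightest and -0.64 on the third probe set, so the 3 probe sets gave unequal values for the gene.

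Id3, the inhibitor of E proteins linked to long-lived memory precursors, had 1 probe set with signals near background. The expansions gave 121, 37.9, 18.5 and 56.5 and the partners 39.5, 132, 108 and 63.5. Expansions 2 and 3 and the partner of mouse 1 were below background, and the groups overlapped. Expansion 1 was at least 2.38-fold above its partner. The paired differences were 1.51, -1.68, -2.27 and -0.15. The alpha4-low value was -1.37 (SE 0.62, 95% interval -2.72 to -0.01, limma adjusted p = 0.966), and the difference between subclasses was -2.87 (SE 1.25, 95% interval -5.58 to -0.16, limma adjusted p = 0.704). This difference was -1.68 without the mouse block and -1.17 with sort purity as a covariate, and 3 of the 8 values behind it are background values. Id3 was the 1 member under an unadjusted p of 0.05 in the alpha4-low pairs. With sort purity as a covariate its alpha4-low value was -0.11.

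The window before the Id3 start is shown because this gene and Id2 both act by capturing E proteins but had different values. RefSeq places it at chr4:136143572-136143821 on the plus strand of GRCm38.p6.

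Id3: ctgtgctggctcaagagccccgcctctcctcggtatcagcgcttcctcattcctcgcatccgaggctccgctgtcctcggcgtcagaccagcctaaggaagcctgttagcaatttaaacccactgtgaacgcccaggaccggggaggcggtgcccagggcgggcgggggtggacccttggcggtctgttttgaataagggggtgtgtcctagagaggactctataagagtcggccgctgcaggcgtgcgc

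LEF-1, the partner of TCF-1 at genes of naive and memory T cells, had 1 tested probe set (1454734_at). The Lef1 signal in expansions 1 to 4 was 238, 522, 326 and 809, and in the partners 1642, 691, 616 and 824. Every expansion was below its own partner, most of all in mouse 1, whose partner was the highest and whose expansion the lowest of the 8 arrays, although the groups overlapped through expansion 4. The paired differences were -2.76, -0.40, -0.91 and -0.03, so that the signal of expansion 1 was 6.77-fold below its partner on the log2(signal + 5) scale and that of expansion 4 close to its own. The fitted value was -1.02 over all pairs (SE 0.45, 95% interval -2.02 to -0.03, limma adjusted p = 0.9998) and -0.45 in the alpha4-low pairs (SE 0.42). The difference between subclasses was 2.31 (SE 0.83, 95% interval 0.51 to 4.12, limma adjusted p = 0.553), and 1.10 without the mouse block. The other Lef1 probe set (1421299_a_at) was above background in the partner of mouse 2 alone and was not tested.

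The window before the Lef1 start is shown because this gene was the one with lower signal in all 4 expansions on its brightest probe set. It lies at chr3:131110047-131110296 on the plus strand of GRCm38.p6, from RefSeq, and is 1 of 4 windows listed for the gene.

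Lef1: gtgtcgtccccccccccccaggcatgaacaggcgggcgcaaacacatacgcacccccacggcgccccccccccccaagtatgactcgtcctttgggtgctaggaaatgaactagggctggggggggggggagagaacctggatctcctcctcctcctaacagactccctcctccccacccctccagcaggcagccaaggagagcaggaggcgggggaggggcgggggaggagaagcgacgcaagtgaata

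FOXO1, a forkhead factor that keeps homing and interleukin-7 receptor genes on in resting T cells, had 4 probe sets, of which 3 were tested. On the brightest (1416983_s_at) the expansions gave 1622, 3913, 5018 and 2876 and the partners 2670.2, 6204, 2377 and 3476. Expansion 1 was the lowest array and the groups overlapped, with paired differences of -0.72, -0.66, 1.08 and -0.27. On 1416982_at the expansions gave 782, 1381, 828 and 1593 and the partners 1940.2, 1680.1, 1574 and 2211. Each expansion was below its partner, by -1.31, -0.28, -0.92 and -0.47, with a fitted value over all pairs of -0.75 (SE 0.32, 95% interval -1.46 to -0.03, limma adjusted p = 0.9998). On 1416981_at the expansions gave 464, 796, 1793 and 818 and the partners 694, 826, 917 and 673. The paired differences there were -0.58, -0.05, 0.96 and 0.28, so the 3 probe sets agreed in direction in mice 1 and 2 and not in mice 3 and 4. Lef1 and this Foxo1 probe set (1416982_at) were the 2 of 18 member probe sets lower in 4 of 4 pairs, which 6.05% of all tested probe sets were. The fourth probe set (1456529_at) was below background in all expansions and in the partners of mice 1 and 2.

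**Figure D3:**
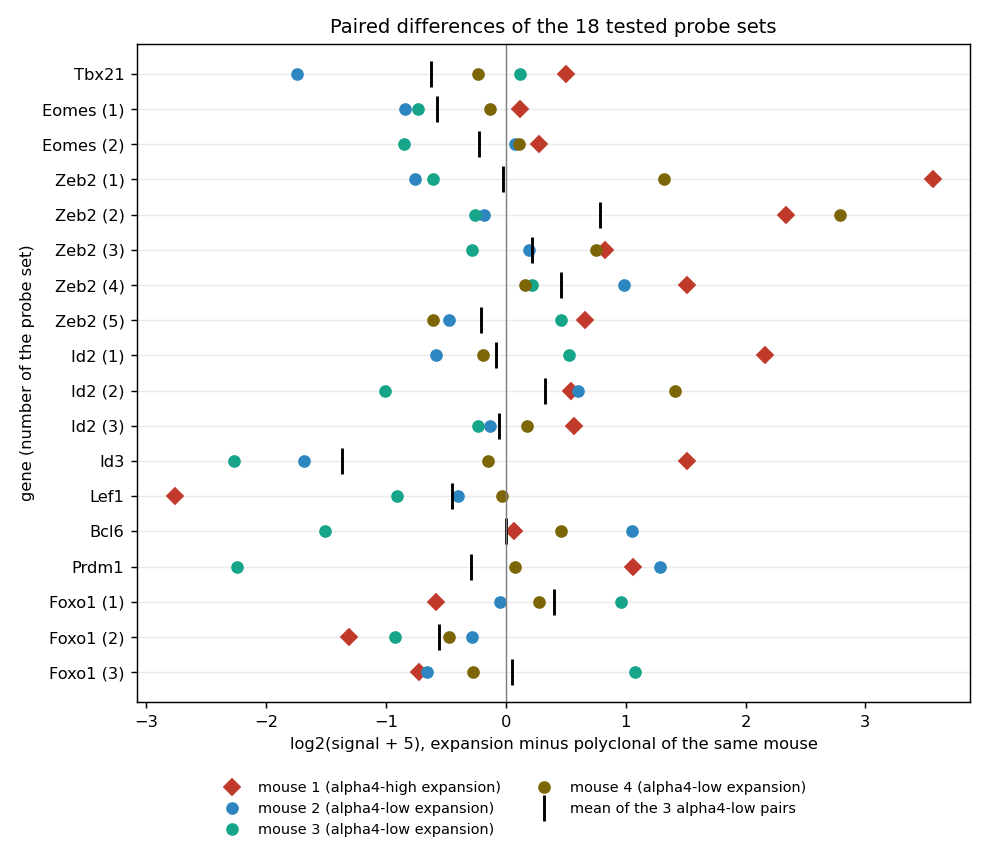
Paired differences (horizontal axis, log2(signal + 5), expansion minus polyclonal sample of the same mouse) of the 18 tested probe sets, with probe sets of a gene numbered; diamonds are mouse 1, circles are mice 2, 3 and 4, and bars are the mean of the 3 alpha4-low pairs. Mouse 1 is the highest pair on the brightest Zeb2 probe set (3.56), on 1422537_a_at of Id2 (2.16) and for Id3 (1.51) and the lowest for Lef1 (-2.76), while mouse 4 lies above it on the brightest Id2 probe set (1.41 against 0.54) and on Zeb2 1434298_at (2.79 against 2.34).

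Read by mouse, the 9 brightest probe sets gave different profiles. The counts below have no share over all tested probe sets beside them, and array medians differed within pairs. The medians of expansions 1 to 4 were 53.8, 55.4, 75.1 and 55.4, and those of their partners 46.5, 74.0, 72.2 and 49.3. The part of array-wide shifts in the counts was not tested. In pair 1, 7 genes were higher in the expansion and 2 lower, from -2.76 for Lef1 to 3.56 for Zeb2. In pair 2, 4 were higher and 5 lower, from -1.74 for Tbx21 to 1.29 for Prdm1. In pair 3, 2 were higher and 7 lower, from -2.27 for Id3 to 1.08 for Foxo1. In pair 4, 5 were higher and 4 lower, from -0.27 for Foxo1 to 1.41 for Id2. The median size of the difference, whatever its sign, was 0.72, 0.76, 1.01 and 0.23 in pairs 1 to 4, against 0.47, 0.61, 0.58 and 0.44 over all tested probe sets. Pair 4 was thus the one in which expansion and partner were most alike on these genes, and it is also the pair from the B10.BR mouse and the one whose expansion array carries a different scanner record from the rest, attributes that cannot be told apart.

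Over the 18 probe sets, 6 exceeded the partner of mouse 1 by more than 2-fold in expansion 1, as did 12.0% of all tested probe sets: 3 of Zeb2, and 1 each of Id2, Id3 and Prdm1. Another 2, of Lef1 and Foxo1, were more than 2-fold lower, as were 9.52% of all tested. In the alpha4-low pairs, 1 probe set, of Zeb2, was higher in 3 of 3 (9.99% of all tested) and 4 were lower in 3 of 3 (15.0% of all tested), those of Eomes (1426001_at), Id3, Lef1 and Foxo1 (1416982_at). When all 4 expansions were set against all 4 polyclonal samples, 0 of the 18 separated without overlap, against 1.35% of all tested. The plot of fitted differences gives each estimate with its interval.

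**Figure D4:**
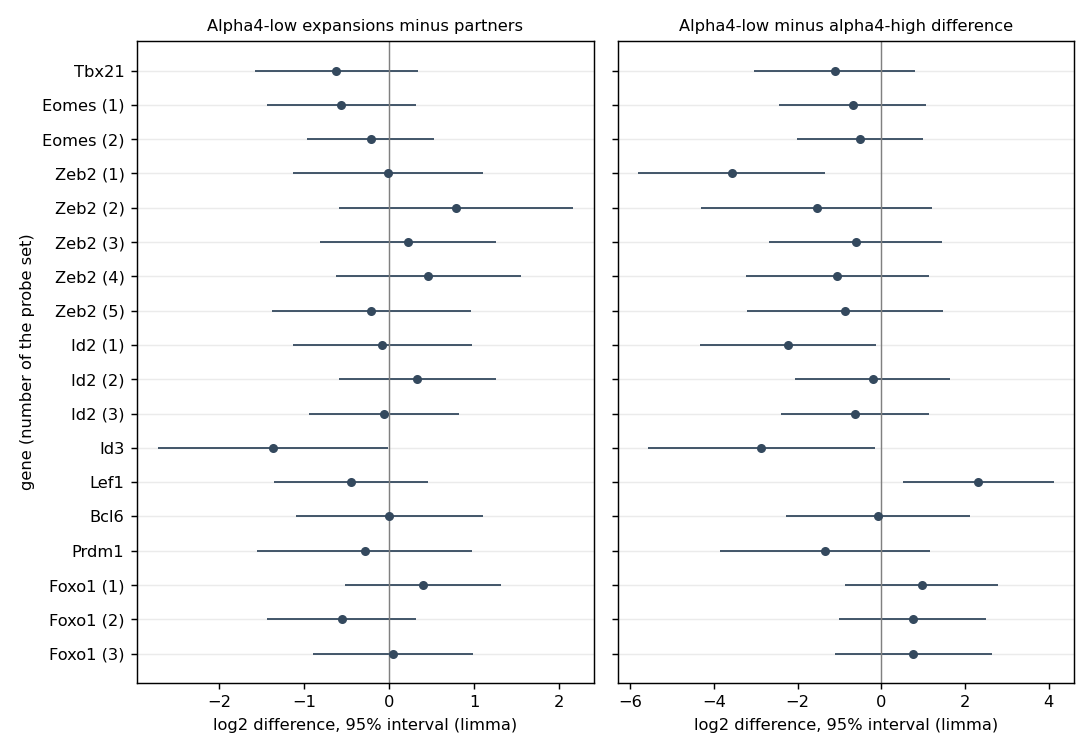
Fitted log2 differences (horizontal axes) with 95% intervals from limma for the 18 tested probe sets, in the 3 alpha4-low pairs (left) and for the alpha4-low minus the alpha4-high value (right); the axes have different ranges. On the right, 0 is left out by Zeb2 1422748_at (-5.81 to -1.34), Id2 1422537_a_at (-4.33 to -0.14), Id3 (-5.58 to -0.16) and Lef1 (0.51 to 4.12). On the left it is left out by Id3 (-2.72 to -0.01), but no adjusted p passed 0.05.

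For Zeb2 and Id3 the genes with the most similar paired differences over the 4 mice were listed by root mean square distance. The nearest to Zeb2 were Arfgef3 (0.25 log2 units), Babam1 (0.31), Apba3 (0.31), Tmc1 (0.32) and Atat1 (0.33). All 5 were below background in the partner of mouse 1, as Zeb2 was. The nearest to Id3 were Prex1 (0.17), B4galt6 (0.20), 9430078K24Rik (0.23), Itm2c (0.23) and Stard10 (0.24), of which Prex1 and Itm2c were above background on all 8 arrays. These lists rest on 4 values per gene that come from shared arrays.

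Next, genes that the members work with or act on were examined in 5 lists, on the brightest tested probe set of each gene. The first list held 3 genes of E proteins, the transcription factors that Id2 and Id3 capture, and the related inhibitors Id1 and Id4. The 3 E protein genes were tested and none passed in any comparison. Tcf4 gave 177, 45.2, 44.0 and 77.8 in expansions 1 to 4 and 115, 195, 175 and 80.2 in partners, with expansions 2 and 3 below background and a difference between subclasses of -1.91 (SE 1.07, limma adjusted p = 0.895). With sort purity as a covariate it was -0.33, and both other tested Tcf4 probe sets (1416725_at and 1434148_at) gave 0.28. Tcf12 and Tcf3, the other E protein genes, had differences of 0.87 (SE 0.70) and 0.04 (SE 1.04). The median over the 3 was 0.04 for the difference between subclasses, against -0.10 over all tested. Id1 and Id4 did not pass the filter on dim probe sets.

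Among 12 targets of T-bet and Eomes, 11 were tested. Their median was 0.17 over all pairs and -0.08 in the alpha4-low pairs, against -0.04 and -0.07 over all tested probe sets. In the difference between subclasses it was -1.55, against -0.10. There 10 of 11 were below 0, while 45.7% of all tested were above 0, and all 11 share the single pair 1. In that difference 1 passed, as did 0.0533% of all tested. That 1 was Klrg1, a receptor of terminal effector cells. It gave 3668 in expansion 1 and 192, 142 and 152 in the alpha4-low expansions, against 359, 679, 1421 and 1168 in the partners, a difference of -5.99 (SE 0.88, limma adjusted p = 0.0472). Expansion 1 was above all other arrays and the alpha4-low expansions were below all of them. The call was lost with a pseudocount of 1 (adjusted p = 0.0544), with quantile normalization (0.0952) and without the intensity trend (0.237). Gzma and Gzmb, which encode granzymes, and Cx3cr1, a chemokine receptor of patrolling effector cells, had differences that did not pass. They were -4.55 for Gzma (SE 1.54, limma adjusted p = 0.512), -2.42 for Gzmb (SE 0.96, limma adjusted p = 0.628) and -3.11 for Cx3cr1 (SE 1.59, limma adjusted p = 0.832). Expansion 3 was below background for Gzma and Cx3cr1. With sort purity as a covariate the difference was -0.18 for Gzma and -0.08 for Cx3cr1, against -4.07 for Gzmb. Without the pair of mouse 3 that of Cx3cr1 was -1.42. Gzma gave -3.15 without the pair of mouse 3 and -5.99 without that of mouse 4, and Gzmb gave -3.07 and -1.94. The exception in direction was S1pr5, a receptor for exit from tissues, at 1.98 (SE 1.14).

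Of 12 genes linked to TCF-1, LEF-1 and FOXO1, 11 were tested. Their median was -0.48 over all pairs and -0.57 in the alpha4-low pairs, against -0.04 and -0.07 over all tested. Of the 11, 9 and 7 were below 0, while 46.1% and 44.5% of all tested were above 0, and none passed. In the difference between subclasses the median was 0.06, against -0.10, and 1 passed (0.0533% of all tested did). That was Satb1, an organiser of chromatin in T cells. It gave 1360.5 in expansion 1 and 27315, 24261 and 29585 in the alpha4-low expansions, against 21208, 19771, 12576 and 19623 in partners, a difference of 4.63 (SE 0.65, limma adjusted p = 0.0472). Expansion 1 was far below all other arrays. That call was lost with a pseudocount of 1 (adjusted p = 0.0544), without the filter (0.053), with quantile normalization (0.0612), without the intensity trend (0.246) and with sort purity as a covariate (0.217). The other tested Satb1 probe sets gave 5.56 (1436182_at), 5.10 (1416007_at), 3.02 (1439449_at) and 1.58 (1439315_at), and of these 1436182_at alone passed. Slamf6, a surface receptor of TCF-1-high cells, ran the other way, with 4054 in expansion 1 and 62.4, 237 and 363 in expansions 2 to 4, against 891, 376, 1038 and 417 in partners. Its difference was -3.78 (SE 0.98, limma adjusted p = 0.278), and it was -3.53 without the pair of mouse 3 and -4.48 without that of mouse 4. With sort purity as a covariate it was -2.10, and the other tested Slamf6 probe sets gave -3.12 and -2.76. Ccr7, a lymph node homing receptor, and Myb, a factor of stem-like T cells, gave -2.09 (SE 1.27) and -1.97 (SE 0.87). Ccr7 was below background in expansion 2 and in the partners of mice 1 and 4, and was -0.51 without the mouse block. Myb was -0.91 with sort purity as a covariate, and its other tested probe set gave -1.05.

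Of 25 other regulators of effector and memory fate, 22 were tested and none passed, with medians of -0.15, -0.29 and -0.64 in the 3 comparisons. Batf, an AP-1 factor needed for effector differentiation, gave 239, 13.4, 29.2 and 146 in expansions and 11.3, 199.9, 225 and 126 in partners. Expansions 2 and 3 and the partner of mouse 1 were below background, the same arrays as for Id3, and the fitted difference of -5.91 (SE 1.37, limma adjusted p = 0.178) rests on these values, so its size is not measured. It was -2.42 without the mouse block and -3.29 with sort purity as a covariate. Without the pair of mouse 3 it was -5.54 and without that of mouse 4 -7.02, in fits that still hold the partner of mouse 1. Bhlhe40, a regulator of cytokine production, gave -2.32 (SE 0.96), and the forkhead factors Foxo3 and Foxp1, both linked to quiescence, gave 2.22 (SE 0.78) and 2.12 (SE 1.06), with limma adjusted p-values of 0.664, 0.547 and 0.818. The other tested Foxo3 probe set gave 2.12. The remaining tested Foxp1 probe sets ran from -0.26 to 1.07, and the brightest gave 0.33 with sort purity as a covariate and 1.21 without the pair of mouse 3. Bhlhe40 gave -1.38 with sort purity as a covariate. Of 16 cofactors of the members, 13 were tested and none passed, with medians of -0.14, -0.08 and -0.55. Tle1, a corepressor bound by TCF-1 and LEF-1, was below background in expansion 1 (8.05) and gave 140.1, 239 and 191 in expansions 2 to 4 and 161, 134, 148 and 95.1 in partners. Its difference was 4.24 (SE 0.94, limma adjusted p = 0.145). As expansion 1 gives only a background value, the size of that difference is not measured, and it was 2.75 with a pseudocount of 32. The adjusted p of this probe set was under 0.05 in 3 of 13 alternatives run, with the arrays centred on their medians (0.0467), without the mouse block (0.0318) and without the pair of mouse 3 (0.0346), and was between 0.0318 and 0.76 over all of them. The other tested Tle1 probe set (1434033_at) gave 0.28 (limma adjusted p = 0.9997). Its relatives Tle4 and Tle3 gave 1.73 (SE 0.77) and -1.01 (SE 0.83), but the other tested Tle4 probe set gave -1.17. For Tle3 the other tested probe sets ran from -1.74 to -1.18. Ctbp2, a corepressor recruited by ZEB2, gave -2.16 (SE 1.21) with the partner of mouse 1 below background (9.14), and this turned to 0.22 without the mouse block. Its other tested probe set gave -0.71.

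**Figure D5:**
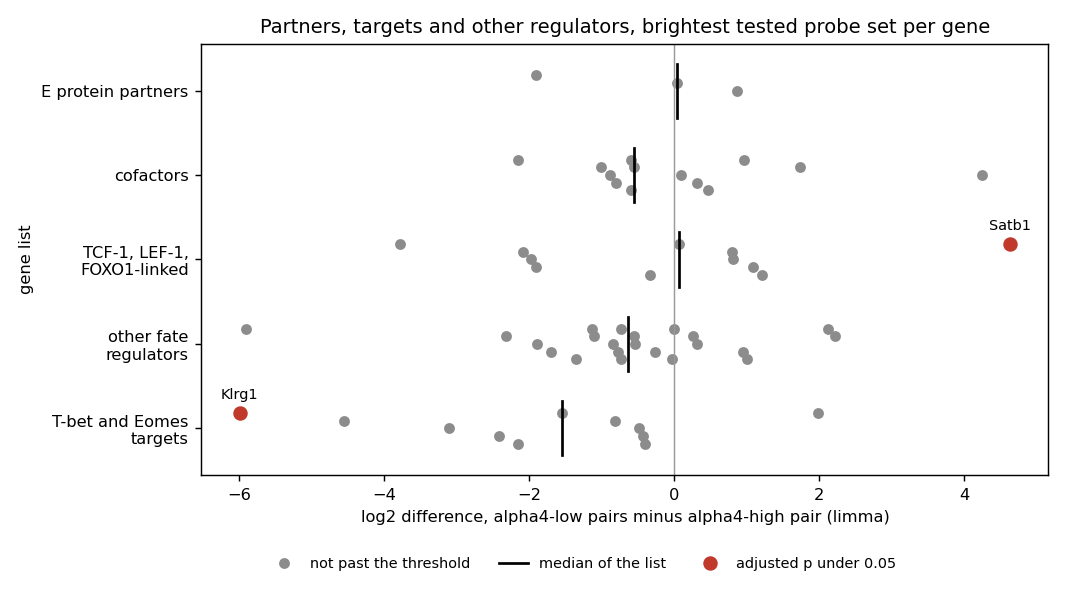
Fitted log2 difference between subclasses (horizontal axis, alpha4-low pairs minus the alpha4-high pair, limma) of the tested genes in 5 lists, 1 point per gene at its brightest probe set, with the list's median as a bar. Klrg1 (-5.99) and Satb1 (4.63) are the points past an adjusted p of 0.05. The median of T-bet and Eomes targets is -1.55, against -0.10 over all tested probe sets, and all points share pair 1.

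The windows before the starts of the 9 measured members were searched on both strands for 5 short motifs: the E-boxes CACCTG (bound by ZEB2 and E proteins) and CAGCTG, the TCF-1 and LEF-1 motif CTTTGA, the T-box motif TCACACC and the forkhead motif TGTTTAC. Of these, CACCTG was present before Tbx21 and Prdm1 and in 17.2% of all 32851 windows of the same length, CAGCTG before Id2 and in 13.0% of windows, and TGTTTAC before Prdm1 and in 3.17%. CTTTGA (13.8% of windows) and TCACACC (3.33%) were found before 0 of the 9 members. The windows of Eomes, Zeb2, Id3, Lef1, Bcl6 and Foxo1 held none of the 5. A match is a string of letters and not a measured site, and its absence says only that the letters are not in this window.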

How the data were processed

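Total RNA from frozen sorted cells was purified for all samples in parallel, amplified in 2 rounds and labelled with biotin, per the labels' protocols. The deposited table holds, for 45101 probe sets, a linear signal intensity that the authors computed with MAS5, as the submitters' processing notes say, with the version not given in the sources used here. The 2% trimmed mean of each array is 500 in the deposited values, so no scaling was added and a change in total RNA per cell cannot be seen. The table has no detection calls. 2 rounds of amplification can favour the 3' ends of transcripts. The number of arrays limits the precision.

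Values were taken as log2(value + 5), 5 being close to the 10th percentile of all values (4.6). The 64 control probe sets and those with a mean not above the median of all were left out, which kept 22518 with a signal above about 45.3. limma 3.58.1 in R 4.3.3 (lmFit, eBayes with an intensity trend) was fitted with mouse as a block, since both samples of a pair come from the same animal, as the design text states. Deviations from group means correlated at 0.374, 0.0771, 0.214 and 0.338 in mice 1 to 4, but not every expansion was closest to its own partner: that of mouse 2 gave 0.131 with the partner of mouse 4, and that of mouse 3 gave 0.3005 with the partner of mouse 2. One model had 1 coefficient for all expansions (3 residual degrees of freedom), the other had separate coefficients for the subclasses (2 residual degrees of freedom). Fits that add sort purity or leave out an alpha4-low pair have fewer than the main fit of the same comparison. In the model of subclasses, pair 1 has a coefficient of its own, so the sort purity slope comes from the alpha4-low pairs alone. All tests were two-sided, and p-values were adjusted by the Benjamini-Hochberg method over all 22518 at 0.05. A fold against a sample below background is given as a bound against that array's background level. The scanner records differ for 1 of 8 arrays, expansion 4.

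The platform annotation gives 34958 probe sets 1 gene and 932 several, and no gene was named from the latter. Entrez identifiers matched a RefSeq gene table for 34754 and changed 0 symbols. Promoter windows are RefSeq sequence of GRCm38.p6, and all 9 measured members matched. The files name no genome build, so no probe set positions are given.

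The members, the 5 lists, the markers, the background level and the figures were chosen with earlier results of these data known. Named were every member probe set, every list gene past the threshold, up to 4 genes per list with the largest difference, and the 5 genes closest to Zeb2 and to Id3 in paired differences; the same could not be run for Tcf7. S1pr5 and Jchain and the other marker genes were named after their values were seen. In simulated data of 22518 probe sets, each comparison had 67 changed by 1 log2 unit, 67 by 2 and 66 by 4. Differences of 1 unit were recovered for 5.97% over all pairs, 1.49% in the alpha4-low pairs and 0% in the difference between subclasses. Differences of 2 units were recovered for 74.6% over all pairs, 62.7% in the alpha4-low pairs and 5.97% in the difference between subclasses. Differences of 4 units were recovered for 98.5%, 98.5% and 37.9%. These shares hold for the simulated data and depend on how many probe sets were changed. With 1 coefficient for all expansions, a gene that differs between subclasses has a larger error over all pairs. Its recovery there can be lower than the stated share, and recovery in the measured data was not tested. Alternatives covered the pseudocount, filter, scaling, variance prior, block, sort purity, threshold and omission of each pair. Figures were drawn with matplotlib 3.10.9.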

Additional observations from a re-analysis of the deposited data

Results flagged for a closer look

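On Id2 probe set 1422537_a_at the polyclonal sample of mouse 2, at 195.2, stood far from the other three polyclonal samples (64.2 to 71.0). On the brightest Id2 probe set (1435176_a_at) it was the polyclonal sample of mouse 3, at 22153.2, against 10961 to 12090 in the others. By Dixon's test, 2 of 18 member probe sets had such a polyclonal sample, and chance gives about 1 in 20 groups. The share over all tested probe sets was not computed. The 18 are not independent, since several are of the same gene and all come from the same polyclonal samples.

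In 2 genes of the lists, the subclasses differed by the limma test of the difference itself, alpha4-low minus alpha4-high. Klrg1 had a difference of -5.99, and Satb1 had 4.63 on its brightest probe set (1416008_at) and 5.56 on 1436182_at, each with an adjusted p of 0.0472. The remaining tested Satb1 probe sets, from 1.58 to 5.10, did not pass. The alpha4-high side is 1 pair, and no explanation was tested.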

How the results depend on the processing

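None of the 18 member probe sets was called under any of the settings run except when the pair of mouse 4 was left out, where 1 was (Zeb2 1422748_at, limma adjusted p = 0.0164); without each pair the count was 0 to 1. Of 771 member values under alternatives, 708 kept their direction and side of the threshold, 62 changed direction and 1 became past the threshold. The fit without the pair of mouse 4 has fewer residual degrees of freedom than the main one.

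Over all probe sets, the count over all pairs stayed at 0 (731 at an unadjusted p under 0.05) except for leave-one-out counts of 0 to 20, with 20 when mouse 1 was left out. For the alpha4-low pairs, 12 were called; the stricter filter gave 22, quantile normalization 6, centring on medians 29, no intensity trend 0 (1097 unadjusted), a threshold of 0.10 gave 37, and leaving out a pair gave 18 to 148, the latter without mouse 4 and 133 without mouse 3. For the difference between subclasses, 12 were called; a pseudocount of 1 gave 0 (1540 unadjusted), 32 gave 29, no filter 25, the stricter filter 63, quantile normalization 0 (1550 unadjusted), centring 56, no trend 0 (1572 unadjusted), the 0.10 threshold 68, and leaving out a pair 64 to 266; leaving out mouse 1 leaves no alpha4-high pair and gives no value. In the 5 lists 2 genes were called, against 0 with a pseudocount of 1, with quantile normalization and without the trend, 1 with sort purity, and 3 to 8 without a pair.

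Without the replicate block, that is without the pairing by mouse, the counts were 0 over all pairs (341 unadjusted), 0 in the alpha4-low pairs (621 unadjusted) and 143 in the difference between subclasses. Values that changed direction there were Tbx21 (0.267), Id2 (0.108) and Ctbp2 (0.223) in the difference, and Bcl6 (-0.211) and Zeb2 (0.455) in the alpha4-low pairs. The cause of these changes was not tested.

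Scaling moved the median difference between subclasses of all probe sets from -0.0953 to 0.0498 with quantile normalization and to 0.183 with centring. With centring Bcl6 (0.213) and Id2 (0.073) in the difference and Zeb2 (0.147) in the alpha4-low pairs changed direction, with quantile normalization Bcl6 (0.019) and Zeb2 (0.060) did, and with a pseudocount of 1 Zeb2 (0.014) did. With sort purity as a covariate, direction changed over all pairs for Eomes (0.191) and Id3 (0.456), in the alpha4-low pairs for Eomes (0.270), Zeb2 (1.211), Lef1 (0.047), Prdm1 (0.747) and Foxo1 (-0.595), and in the difference for Eomes (0.163), Id2 (1.591), Bcl6 (1.201), Prdm1 (0.050) and Foxo1 (-0.104).

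Leaving out each pair gave ranges on both sides of 0. Over all pairs these were -0.618 to 0.130 for Tbx21, -0.223 to 0.155 for Eomes, -0.017 to 1.423 for Zeb2, -0.326 to 0.527 for Bcl6, -0.366 to 0.811 for Prdm1 and -0.552 to 0.046 for Foxo1. In the alpha4-low pairs they were -0.388 to 0.092 for Eomes, -0.686 to 0.355 for Zeb2, -0.207 to 1.004 for Id2, -0.522 to 0.757 for Bcl6, -1.081 to 0.685 for Prdm1 and -0.469 to 0.402 for Foxo1. In the difference they were -0.745 to 0.466 for Id2, -0.590 to 0.689 for Bcl6 and -0.464 to 0.449 for Tcf3. On these probe sets Lef1, Id3 and Zeb2 kept their direction in the difference between subclasses under all settings run, with ranges of 1.10 to 2.98, -3.48 to -1.17 and -4.25 to -1.69. These named values use the brightest probe set of each gene, and on 2 of the 4 other Zeb2 probe sets the difference changed direction (to 1.03 with sort purity on 1434298_at, to 0.26 without the block on 1454200_at). Signals of Zeb2 and Id3 near background limit their differences, and 8 arrays limit all of them.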
